A study of Rattus norvegicus with 24 samples.

Results

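Immediate early genes were followed in the nasal epithelium and the circulating white blood cells of rats that had inhaled formaldehyde. The set held 10 genes chosen by name, namely Fos, Fosb, Jun, Junb, Egr1, Nr4a1, Ier2, Ier5, Dusp1 and Atf3. Of these 10 genes, 9 had a probe set carrying their symbol alone, 1 probe set each, among 29214 probe sets and 14506 named genes on the array. The values of Fosb were not analysed here. All 9 measured genes passed the filter on dim probe sets in both tissues.

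The animals were male Fischer rats, about 8 weeks old at the start. Exposed rats breathed 2 ppm formaldehyde, made from isotope-labelled paraformaldehyde, by the nose only, in tubes, for 6 hours on each of 7 or 28 days. Control rats were held in the same kind of tube with room air for as long, and rats of every group had been trained to the tubes beforehand. Nasal tissue came from the maxilloturbinate, a scroll of bone and mucosa in the front of the nose. White blood cells came from heart blood passed through cell preparation tubes, which are made to enrich mononuclear cells. There were 24 Affymetrix arrays, 3 in each of 8 groups, which were exposed nose, control nose, exposed blood and control blood at each duration. The labels do not say that each array is a separate animal, so p-values measure only the spread between these samples, which may be technical. The time between the last exposure and tissue collection is not given in the sources used here.

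Immediate early genes are switched on within minutes of a stimulus, without new protein synthesis, by transcription factors that are already present in the cell, such as serum response factor and CREB. Many of them encode transcription factors, which then switch on a later wave of genes, and others encode proteins that shut the signal off again. Their messenger RNA is short-lived, so their levels follow a stimulus closely.

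Values are log2 intensities as deposited, differences are exposed minus control on that scale with the standard error of limma, and a gene is said to have risen or fallen where its Benjamini-Hochberg adjusted p over all probe sets kept was under 0.05. Arrays of the 2 durations had different intensity scales. The array medians were 8.26 to 8.28 in nose and 7.45 to 7.497 in blood at 7 days, and 7.35 to 7.42 in nose and 6.82 to 6.90 in blood at 28 days, so levels are compared only within a day. In the 28 day control nose the arrays correlated with each other at r of 0.952 to 0.974 over the probe sets, below every other group (0.986 or more), and replicate 1 of that group had the lowest summed signal of the olfactory neuron markers, 11.13, against 13.95 and 13.70 on the other control arrays. In bulk samples, fewer cells of a type and less RNA per cell cannot be told apart.

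In white blood cells after 28 days, 3 of the 9 measured immediate early genes fell and 0 rose, where 5.27% of the 21910 probe sets tested were called, 1.31% lower and 3.95% higher. Junb, Nr4a1 and Ier5 made up the 3. For 6 of the 9 genes every exposed array lay below every control array, against 9.03% of all probe sets tested. Of the 9 differences 8 were below 0, as were 55.8% over all probe sets tested, and the median was −0.65, with −0.02 over all probe sets. An unadjusted p under 0.05 was reached by 6 of the 9, against 17.9% of all probe sets.

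The AP-1 family, dimers of Fos and Jun proteins that bind DNA at the AP-1 site, was represented by Fos, Jun and Junb. Junb (gene 24517, probe set 10806585), which often restrains growth where Jun promotes it, stood at 8.32, 8.66 and 8.11 in exposed blood and at 9.21, 10.02 and 8.94 in control blood. The highest exposed array lay below the lowest control array. Junb fell by 1.03 ± 0.23 (SE, n = 3 arrays a group), or 2.04-fold, with a limma adjusted p = 0.0240. Fos, the partner that gives AP-1 its strongest activity, stood at 7.69, 7.83 and 7.60 in exposed blood and at 7.86, 10.18 and 8.10 in control blood. The groups did not overlap, but only control replicate 2 stood far above the exposed arrays. The difference was −1.001 ± 0.448, with an adjusted p = 0.264. Jun, the main DNA-binding partner of Fos, stood at 8.35, 8.00 and 8.57 in exposed blood and at 8.18, 9.14 and 8.61 in control blood, and the groups overlapped. Its difference was −0.34 ± 0.24.

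Nr4a1 (gene 79240, probe set 10899387) encodes Nur77, an orphan nuclear receptor that T cells make soon after their antigen receptor is engaged. It stood at 8.46, 8.15 and 8.09 in exposed blood and at 8.91, 9.72 and 9.36 in control blood, with no overlap. Nr4a1 fell by 1.10 ± 0.26, or 2.15-fold, with an adjusted p = 0.0321. Egr1, a zinc finger factor induced by growth signals, stood at 8.58, 8.94 and 8.52 in exposed blood and at 8.56, 10.66 and 8.42 in control blood. Control replicate 2 alone lay above the exposed arrays, and the difference of −0.53 ± 0.43 did not pass the test. Atf3, a stress-induced repressor of the CREB family, stood at 7.39, 7.77 and 7.34 in exposed blood and at 7.17, 8.02 and 7.24 in control blood. Its difference was 0.02 ± 0.19, the only one of the 9 above 0.

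Ier2 and Ier5 encode related nuclear proteins, and Ier5 is known to promote the activity of heat shock factor. Ier5 (gene 498256, probe set 10768814) stood at 7.26, 7.36 and 7.09 in exposed blood and at 7.78, 7.69 and 7.70 in control blood. Both groups were narrow and they did not overlap. Ier5 fell by 0.49 ± 0.09, or 1.40-fold, with an adjusted p = 0.0105, the smallest of the 9. Ier2 stood at 7.28, 7.23 and 7.02 in exposed blood and at 7.54, 8.27 and 7.67 in control blood, also with no overlap. Its difference of −0.65 ± 0.17 had an adjusted p = 0.0511. Dusp1, a phosphatase that switches off p38 and JNK kinases, stood at 9.86, 9.86 and 9.11 in exposed blood and at 10.55, 12.37 and 10.16 in control blood. The groups did not overlap, and its difference of −1.42 ± 0.45, the furthest from 0 of the 9, had an adjusted p = 0.0989.

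**Figure D1:**
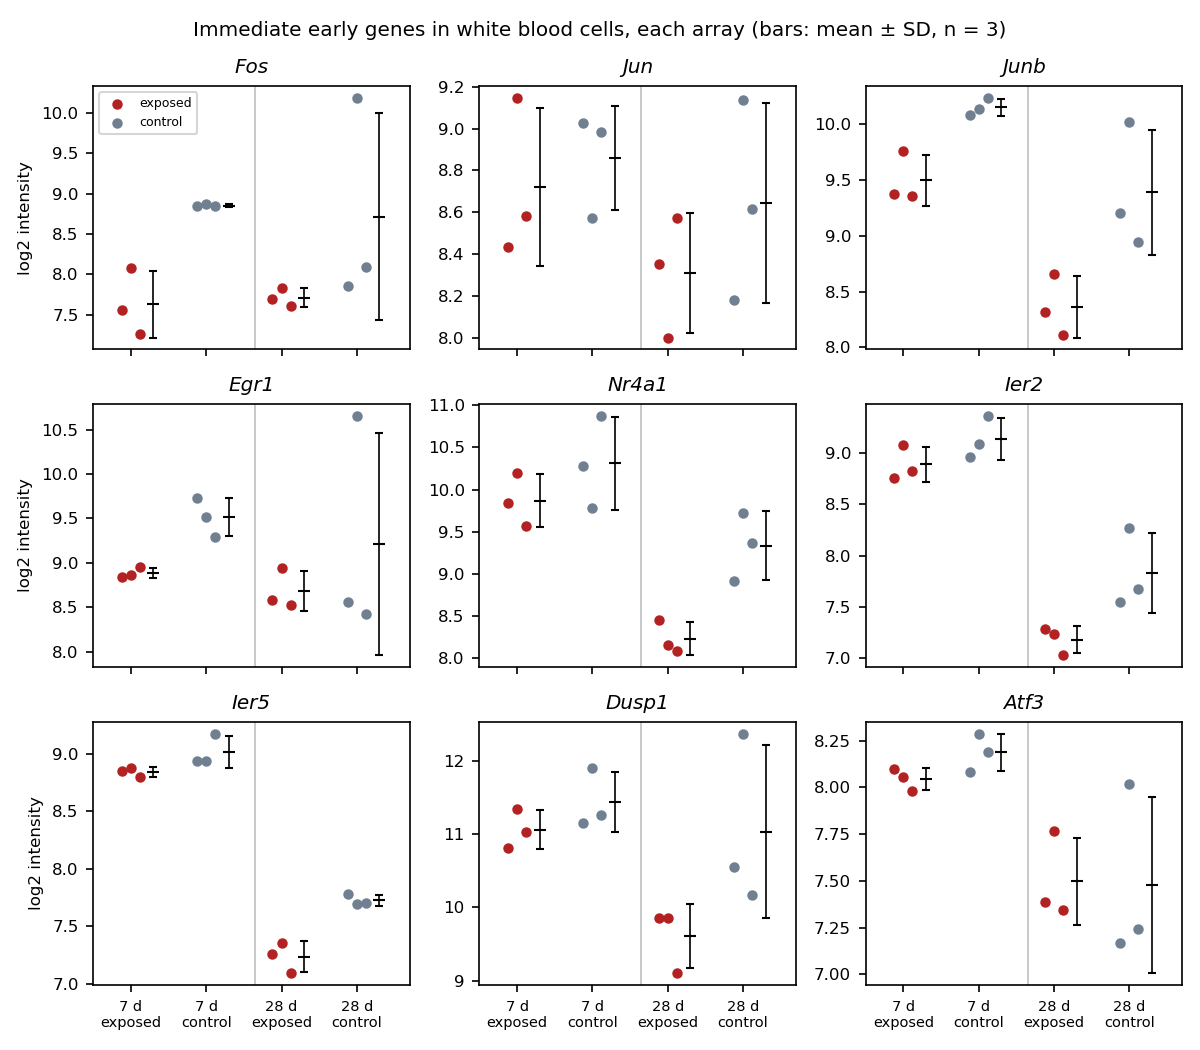
Log2 intensity of the 9 measured immediate early genes on each of the 12 white blood cell arrays, exposed in red and control in blue-grey, with the mean and SD of each group (n = 3) beside the points. At 28 days Fos, Junb, Nr4a1, Ier2, Ier5 and Dusp1 were lower on every exposed array than on every control array, and control replicate 2 stood far above the other arrays for Fos, Egr1 and Dusp1.

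Leaving out single arrays left between 1 and 4 genes called. Ier5 kept its call in 6 of 6 such fits, with adjusted p values of 0.0112 to 0.0364. Junb kept it in 4 of 6. Its adjusted p was 0.0539 without exposed replicate 1 and 0.0756 without exposed replicate 3. Nr4a1 kept its call in 2 of 6, and its adjusted p was 0.0918 without control replicate 2, 0.0965 without control replicate 3, 0.1005 without exposed replicate 2 and 0.0881 without exposed replicate 3. Without exposed replicate 3, 1 gene was called. Without control replicate 1, Ier2 passed as well (adjusted p = 0.0364) and 4 genes were called. With the replicate number as a block, 1 gene was called, Junb (adjusted p = 0.0272), while Ier5 had an adjusted p = 0.0580 and Nr4a1 0.122. In a fit to the 6 arrays of the comparison alone, 0 genes and 1 of all probe sets were called by limma.

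Control replicate 2 at 28 days had the highest value of the 3 controls for 8 of the 9 genes, all but Ier5, where 29.2% of all probe sets were highest on that array. It exceeded the next control by 2.10 for Egr1, 2.08 for Fos and 1.82 for Dusp1. A gap as large as that of Fos was found for 33 probe sets in all. For Nr4a1 the gap was 0.36, and for Ier5 replicate 2 lay 0.09 below the higher of the others. Without that array 2 genes were called, Junb and Ier5. The difference of Ier5 was then −0.51 ± 0.11, that of Nr4a1 −0.91 ± 0.27 and that of Junb −0.71 ± 0.16. Those of Fos and Dusp1 shrank to −0.27 ± 0.18 and −0.75 ± 0.27, and that of Egr1 was 0.19 ± 0.14.

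Markers of neutrophils, short-lived granulocytes, were read on the same arrays. Of 8 neutrophil markers 1 fell and 0 rose in exposed blood at 28 days, with a median difference of −1.67, and none was under the filter level. Their summed signal on the log2 scale was 10.37, 9.91 and 9.37 in exposed blood and 10.80, 13.42 and 10.66 in control blood, so the groups did not overlap and control replicate 2 was the highest. Monocyte markers had 1 of 8 lower, with sums of 12.81 to 13.36 in exposed blood and 13.35 to 14.02 in control blood. Markers of NK and cytotoxic cells had 5 of 8 higher, with sums of 14.13 to 14.47 in exposed blood and 13.65 to 13.84 in control blood. Platelet markers had 2 of 4 higher, with sums of 14.43 to 14.66 in exposed blood and 13.88 to 14.25 in control blood. T cell and B cell markers had 0 of 8 and 0 of 5 called. The part of the monocyte, NK cell and platelet signals in the values of the immediate early genes was not tested.

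In an alternative chosen after seeing the data, the neutrophil marker sum of each array entered the limma fit as a covariate, and then 0 of the 9 genes and 26 of all probe sets were called at 28 days. The difference of Ier5 was −0.51 ± 0.12 (adjusted p = 0.0959) and that of Nr4a1 was −0.95 ± 0.33 (adjusted p = 0.243), both close to their size without the covariate. Junb had −0.55 ± 0.19 and Ier2 −0.32 ± 0.16. Dusp1 had −0.27 ± 0.18, Fos −0.003 ± 0.329 and Egr1 0.35 ± 0.36. Because the marker sums of exposed and control arrays did not overlap at 28 days, exposure and neutrophil signal cannot be told apart there.

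**Figure D2:**
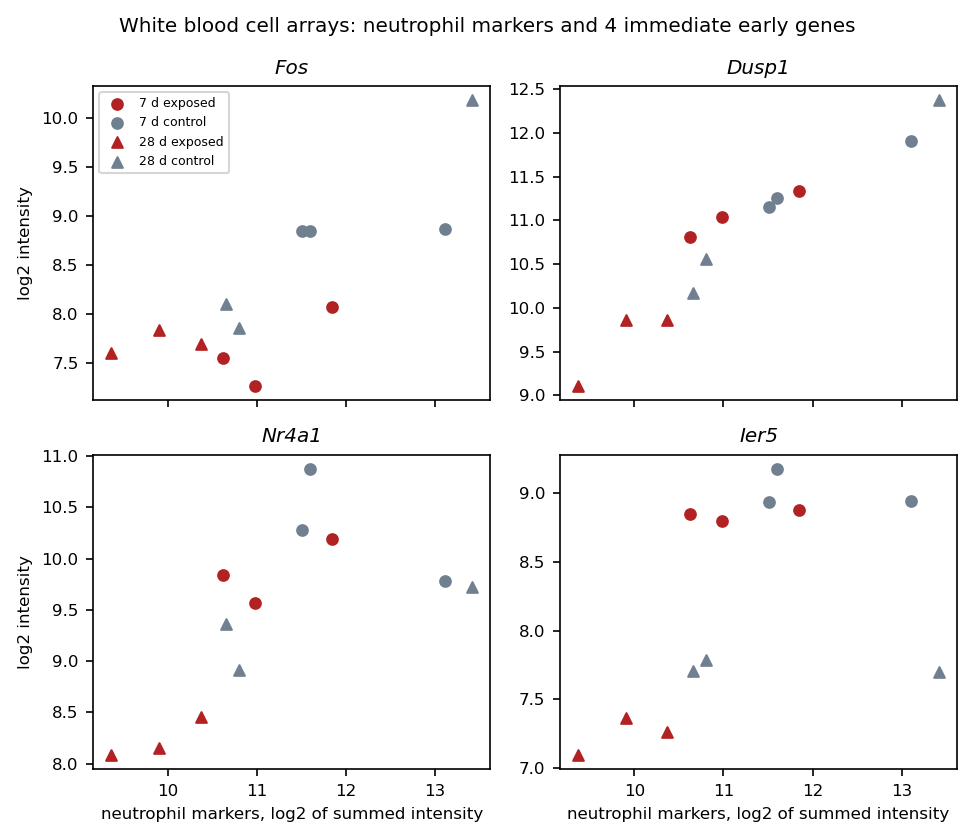
Log2 intensity of Fos, Dusp1, Nr4a1 and Ier5 on the 12 white blood cell arrays against the log2 of the summed intensity of 8 neutrophil markers, exposed in red, control in blue-grey, circles for 7 days and triangles for 28 days. The array with the highest marker sum, 13.42, was a 28 day control and had the highest Fos (10.18) and Dusp1 (12.37) of that day, whereas its Ier5 (7.69) lay close to the other 28 day controls.

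**Figure D3:**
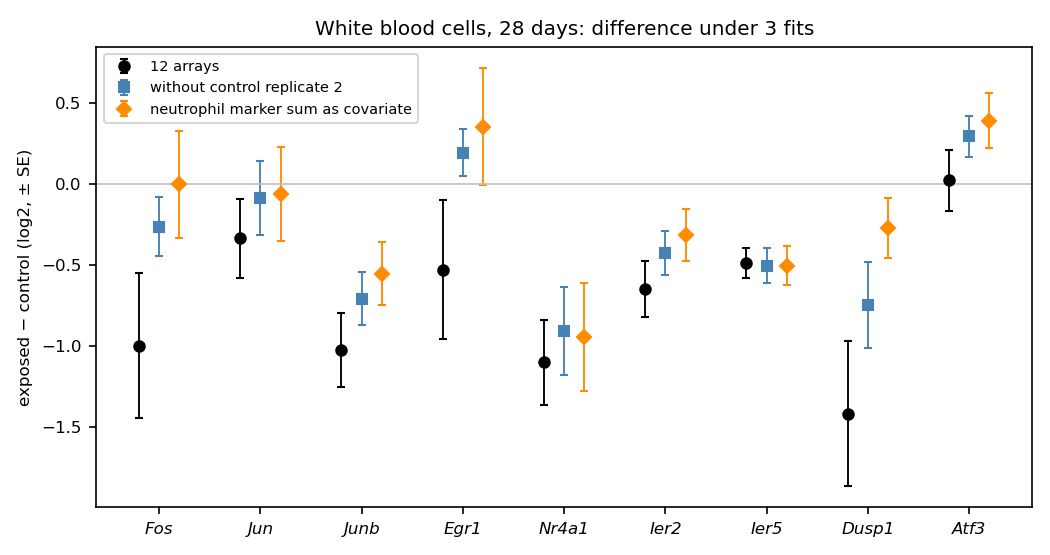
Difference between exposed and control white blood cells at 28 days with its standard error, for the fit to 12 arrays (black circles), the fit without control replicate 2 (blue squares) and the fit with the neutrophil marker sum as a covariate (orange diamonds). Over the 3 fits the difference of Ier5 was −0.49 to −0.51 and that of Nr4a1 −1.10 to −0.91, while Fos had −1.001 in the first and −0.003 in the last.

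The promoters of Junb, Nr4a1 and Ier5, which fell in blood, and of the other measured genes with an entry are shown because the same few response elements are known to drive many immediate early genes. RefSeq entries of the rat build GRCr8 were found for 6 of the 9 measured genes. Fos, Jun and Atf3 had no entry. Each line gives the 250 bases before a transcript start, 5′ to 3′ on the strand of the gene. That start is the outermost annotated one for each but Nr4a1, whose window precedes a start 12985 bases inside the annotated gene. Capitals mark the CArG box, the binding site of serum response factor, and the cyclic AMP response element TGACGTCA or its short form TGACG on either strand.
Junb, chr19:40080876-40081125, plus strand: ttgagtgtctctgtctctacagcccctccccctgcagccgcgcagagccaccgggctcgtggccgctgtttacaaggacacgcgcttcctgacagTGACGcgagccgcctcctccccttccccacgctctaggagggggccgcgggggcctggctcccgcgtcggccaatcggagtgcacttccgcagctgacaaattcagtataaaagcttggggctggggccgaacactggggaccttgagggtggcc
Nr4a1, chr7:134259888-134260137, plus strand: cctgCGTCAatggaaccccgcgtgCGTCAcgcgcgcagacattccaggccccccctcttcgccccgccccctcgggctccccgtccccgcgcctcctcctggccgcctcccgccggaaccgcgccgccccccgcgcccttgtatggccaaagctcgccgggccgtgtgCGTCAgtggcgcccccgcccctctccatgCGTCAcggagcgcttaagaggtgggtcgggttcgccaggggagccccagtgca
Ier5, chr13:69822543-69822792, minus strand: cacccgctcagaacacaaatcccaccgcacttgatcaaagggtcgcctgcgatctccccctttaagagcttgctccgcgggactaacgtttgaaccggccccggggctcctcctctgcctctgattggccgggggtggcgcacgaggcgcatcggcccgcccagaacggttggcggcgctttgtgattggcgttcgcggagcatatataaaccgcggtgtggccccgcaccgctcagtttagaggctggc
Ier2, chr19:40399123-40399372, plus strand: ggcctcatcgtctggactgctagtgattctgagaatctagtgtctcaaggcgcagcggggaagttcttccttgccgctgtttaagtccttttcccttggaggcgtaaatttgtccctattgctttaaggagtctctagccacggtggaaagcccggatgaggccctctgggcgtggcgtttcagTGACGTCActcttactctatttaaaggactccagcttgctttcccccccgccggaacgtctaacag
Dusp1, chr10:17184603-17184852, plus strand: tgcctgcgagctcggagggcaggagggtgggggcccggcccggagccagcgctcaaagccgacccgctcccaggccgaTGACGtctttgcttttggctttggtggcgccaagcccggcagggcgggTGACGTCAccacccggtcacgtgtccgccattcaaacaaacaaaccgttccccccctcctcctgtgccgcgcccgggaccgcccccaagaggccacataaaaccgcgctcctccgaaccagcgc
Egr1, chr18:26736828-26737077, plus strand: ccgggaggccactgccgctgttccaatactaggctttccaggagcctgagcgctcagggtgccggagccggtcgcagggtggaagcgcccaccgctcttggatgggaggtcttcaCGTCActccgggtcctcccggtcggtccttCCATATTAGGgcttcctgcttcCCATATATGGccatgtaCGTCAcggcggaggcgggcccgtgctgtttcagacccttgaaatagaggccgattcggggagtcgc

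The short element TGACG was found on either strand in the promoters of Junb (1 match), Nr4a1 (4), Egr1 (2), Ier2 (2) and Dusp1 (3), and 18.2% of 33469 promoter windows of the same length held it. The full element TGACGTCA, which contains the short one on both strands, was in those of Ier2 and Dusp1, against 1.59% of all windows. The CArG box was found in Egr1, with 2 matches, against 1.5% of all windows. The EGR site GCGNGGGCG, through which Egr1 protein binds, had 1 match, in Nr4a1 (4.29% of windows). The letters TATAAA were found in Junb and Ier5 (12.9% of windows), and the AP-1 site TGANTCA in none of the 6 (6.34% of windows). All motifs were searched on both strands. Ier5, which was called lower in every fit that left out an array, held none of the elements marked in capitals in this window. These are matches of letters and not shown to be sites that are bound in these cells.

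In white blood cells after 7 days, 0 of the 9 genes were called by limma, where 0.475% of probe sets were called. An unadjusted p under 0.05 was reached by 2 of them, Junb and Fos, against 15.1% of all probe sets. All 9 differences were below 0, as were 38% of all probe sets, with a median of −0.38 against 0.04 over all probe sets tested. For 4 genes, Fos, Junb, Egr1 and Ier5, every exposed array lay below every control array, against 10.4% of all probe sets.

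Fos stood at 7.56, 8.08 and 7.26 in exposed blood and at 8.84, 8.87 and 8.84 in control blood at 7 days. The control arrays were nearly identical, and every exposed array lay well below them. The difference of −1.22 ± 0.45 had an adjusted p = 0.225. Junb stood at 9.38, 9.77 and 9.36 in exposed blood and at 10.08, 10.14 and 10.24 in control blood, a difference of −0.65 ± 0.23 (adjusted p = 0.207). Egr1 stood at 8.84, 8.86 and 8.95 in exposed blood and at 9.73, 9.52 and 9.30 in control blood, with narrow exposed arrays below all controls. Its difference was −0.63 ± 0.43. In a fit to these 6 arrays alone, where the spread of the 28 day arrays does not enter, Fos (adjusted p = 0.0316), Junb (0.0415) and Egr1 (0.0404) passed the test. That fit called 463 of the 21910 probe sets, against 104 in the fit to 12 arrays.

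Nr4a1 and Ier5, called at 28 days, had differences nearer 0 at 7 days. Nr4a1 stood at 9.84, 10.19 and 9.57 in exposed blood and at 10.28, 9.78 and 10.88 in control blood, with overlap and a difference of −0.44 ± 0.26. Ier5 stood at 8.85, 8.88 and 8.80 in exposed blood and at 8.94, 8.94 and 9.18 in control blood, without overlap and with a difference of −0.17 ± 0.09 (adjusted p = 0.4003). Jun, Ier2, Dusp1 and Atf3 had differences of −0.14 to −0.38, and their groups overlapped. The neutrophil marker sum was 10.62, 11.84 and 10.98 in exposed blood and 11.51, 13.11 and 11.60 in control blood, with 1 of 8 markers lower and a median difference of −0.88. With that sum as a covariate, 0 of the 9 genes were called, and the differences were −0.69 ± 0.28 for Fos, −0.40 ± 0.17 for Junb, −0.16 ± 0.31 for Egr1 and 0.23 ± 0.16 for Dusp1. Markers of NK and cytotoxic cells had 2 of 8 higher, with sums of 14.83 to 14.93 in exposed blood and 14.19 to 14.48 in control blood.

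The difference between the exposure effects at 28 and 7 days was tested in its own right. In blood 0 of the 9 genes were called by limma, as were 0% of probe sets, and 1 of the 9, Ier5, had an unadjusted p under 0.05, against 11.5% of all probe sets. Its effect was lower at 28 days than at 7 days by 0.31, with a 95% confidence interval of −0.60 to −0.03 and an adjusted p = 0.387. The interval was −1.47 to 0.15 for Nr4a1, −1.08 to 0.33 for Junb and −1.16 to 1.597 for Fos. The calls at 28 days are therefore not shown to differ from the values at 7 days.

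**Figure D4:**
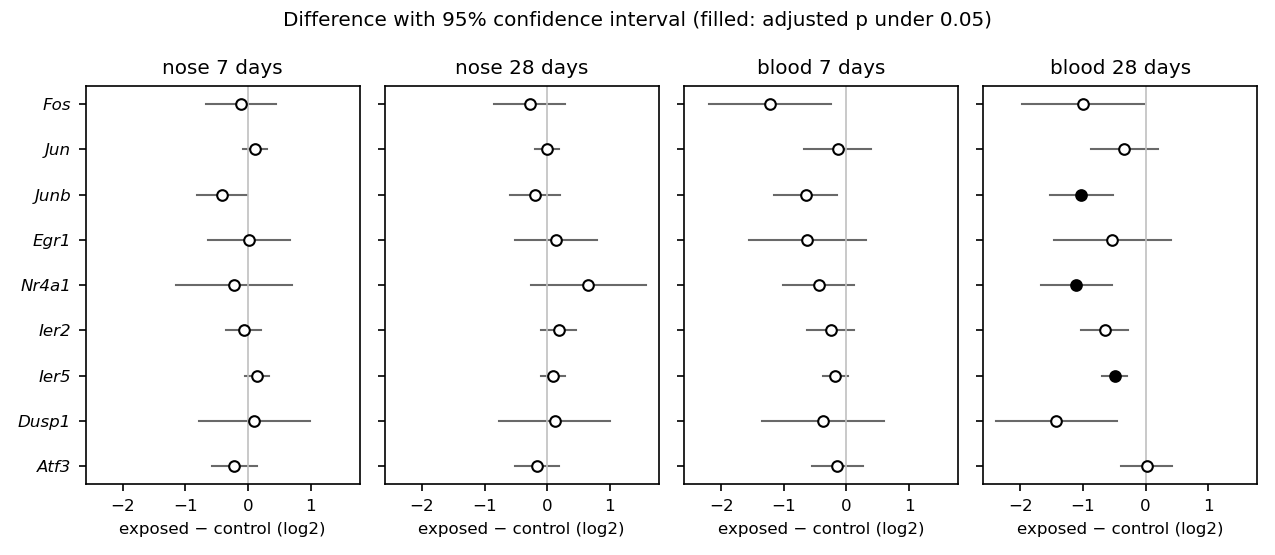
Difference between exposed and control arrays on the log2 scale, with its 95% confidence interval from limma, for the 9 genes in nose and blood at 7 and 28 days (n = 3 arrays a group). Filled points passed the adjusted threshold of 0.05, which are Junb, Nr4a1 and Ier5 in blood at 28 days, and in blood 17 of the 18 points lie below 0.

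In the nasal epithelium after 7 days, 0 of the 9 genes were called by limma, although 16.3% of probe sets were. The median difference was −0.07, against −0.05 over all probe sets tested, and 1 gene, Junb, had an unadjusted p under 0.05 (30.4% of all probe sets). Junb stood at 8.81, 9.54 and 9.39 in exposed nose and at 9.65, 9.69 and 9.66 in control nose, the only 1 of the 9 genes whose groups did not overlap, against 32.4% of probe sets with all exposed arrays lower. Its difference was −0.42 ± 0.18, with an adjusted p = 0.150. Exposed replicate 1 was the lowest of the 6 nasal arrays for Junb, and without it the difference was −0.20.

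Fos stood at 7.78, 8.27 and 8.25 in exposed nose and at 8.06, 8.58 and 7.98 in control nose, a difference of −0.11 ± 0.25. Egr1 stood at 9.95, 10.71 and 10.40 in exposed nose and at 10.21, 10.51 and 10.31 in control nose, a difference of 0.01 ± 0.30. The confidence intervals, −0.67 to 0.45 for Fos, −0.64 to 0.67 for Egr1, −0.79 to 0.99 for Dusp1 and −1.14 to 0.70 for Nr4a1, were wide and included 0. Those of Jun and Ier5 were narrower, −0.07 to 0.31 and −0.05 to 0.34.

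Cell type markers moved between the nasal groups at 7 days. Over all probe sets tested 8.43% were called higher and 7.84% lower. Of 11 olfactory neuron markers 6 rose and 0 fell, and their summed signal was 15.35 to 15.63 in exposed nose and 12.92 to 14.41 in control nose. All 7 endothelial markers fell, with sums of 11.29 to 11.84 in exposed nose and 12.33 to 12.62 in control nose, and 6 of 8 monocyte and macrophage markers fell, with sums of 12.19 to 12.54 in exposed nose and 12.96 to 13.09 in control nose. Tested markers of B cells (3 of 4), red cells (3 of 4), fibroblasts (3 of 6) and T cells (2 of 5) fell too. So did 1 of 6 basal and squamous markers and 1 of 4 NK and cytotoxic markers. Of the ciliated cell markers 2 of 5 rose, while 2 of the 5 differences were below 0. Of the platelet markers 1 of 4 rose, while 3 of the 4 differences were below 0. The platelet sums overlapped, at 9.79 to 9.99 in exposed nose and 9.84 to 9.99 in control nose. The part of these cell types in the values of the immediate early genes was not tested.

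In the nasal epithelium after 28 days, 0 of the 9 genes were called and 0 had an unadjusted p under 0.05, where 0.00456% of probe sets were called and 15.4% had an unadjusted p under 0.05. The groups overlapped for all 9, while 16.2% of probe sets had groups that did not overlap in either direction. Nr4a1 had the widest difference, at 9.06, 8.51 and 9.79 in exposed nose and at 9.32, 8.43 and 7.64 in control nose. The control arrays spanned a wider range than the exposed arrays, and the difference of 0.66 ± 0.42 had an adjusted p = 0.473. Dusp1 stood at 8.94, 9.74 and 10.57 in exposed nose and at 10.25, 9.39 and 9.25 in control nose, with full overlap and a difference of 0.12 ± 0.40. Ier2 stood at 7.68, 7.31 and 7.63 in exposed nose and at 7.31, 7.37 and 7.38 in control nose, a difference of 0.18 ± 0.13. Without control replicate 1, the array with little olfactory signal, 0 genes were called, and Nr4a1 had a difference of 1.08 ± 0.38 (adjusted p = 0.116), Egr1 of 0.40 ± 0.29 and Fos of 0.01 ± 0.21. The difference between the 2 days in nose was called for 0 of the 9 genes, with 0.1% of probe sets called and 0 of the 9 at an unadjusted p under 0.05.

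**Figure D5:**
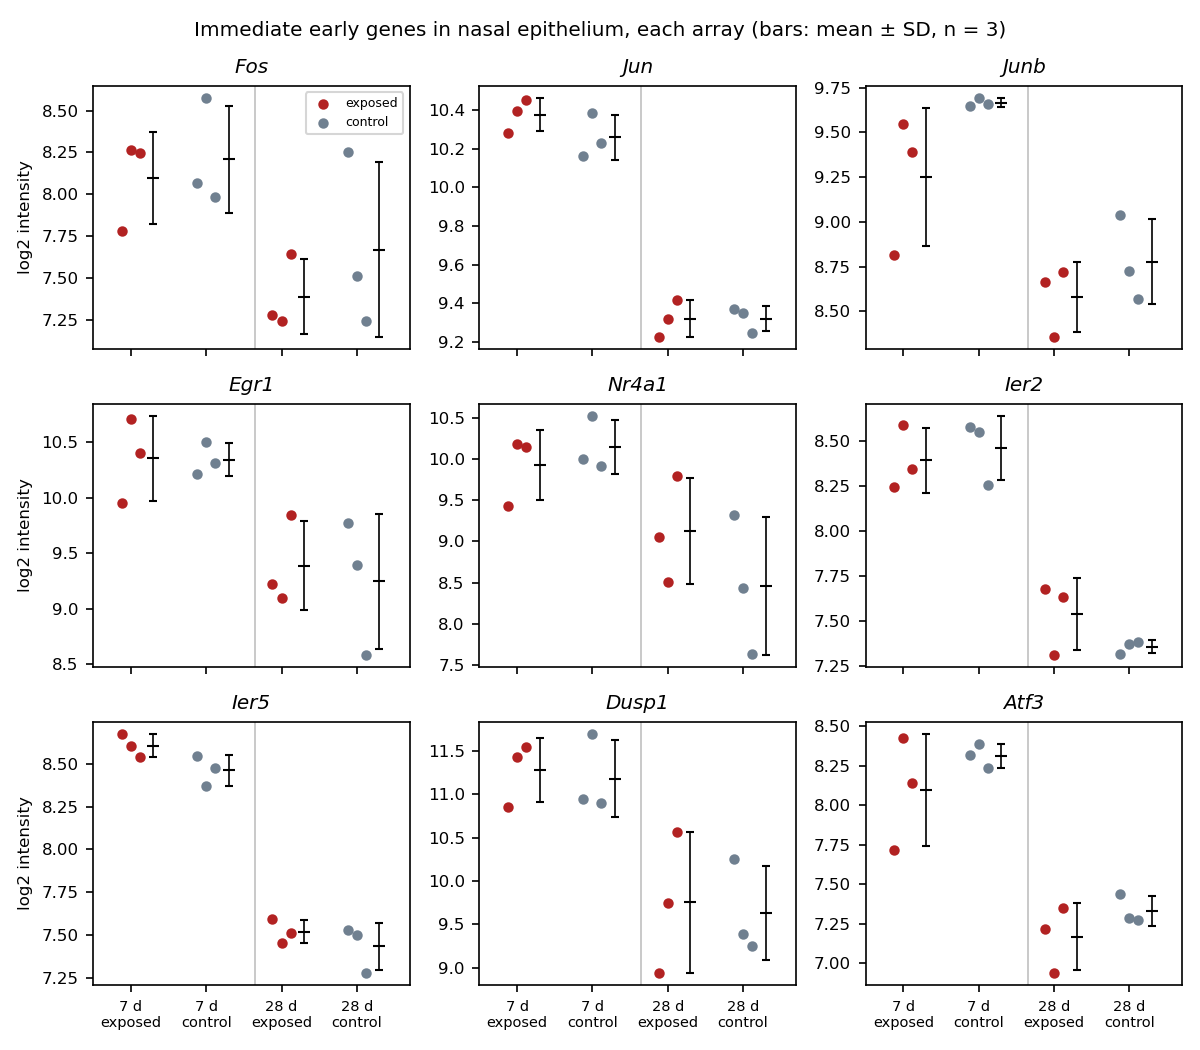
Log2 intensity of the 9 measured immediate early genes on each of the 12 nasal arrays, exposed in red and control in blue-grey, with the mean and SD of each group (n = 3) beside the points. The groups overlapped for every gene at 28 days and for all but Junb at 7 days.

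The exposure effect in nose was compared with that in blood by its own term in a fit to all 24 arrays. At 28 days 2 of the 9 genes differed, both with a higher value in nose, where 5.1% of probe sets were called and 2% in that direction. Ier5 had an effect of 0.09 ± 0.09 in nose and −0.49 ± 0.09 in blood, and the effects differed by 0.58 ± 0.13 with an adjusted p = 0.0120. Its exposed nasal arrays, 7.59, 7.46 and 7.51, overlapped the control nasal arrays, 7.528, 7.498 and 7.278. Ier2 had an effect of 0.18 ± 0.13 in nose and −0.65 ± 0.17 in blood, and the effects differed by 0.83 ± 0.23 with an adjusted p = 0.0369. The call of Ier5 held in 12 of 12 fits that left out an array, with adjusted p values of 0.00555 to 0.0363. That of Ier2 held in 6 of 12, with values up to 0.0958, and ended without nasal control replicate 3, nasal exposed replicate 1 or 3, blood control replicate 2 or blood exposed replicate 2 or 3. With the replicate block Ier2 had an adjusted p = 0.0584 and lost its call, which it also lost with no filter on dim probe sets, while Ier5 kept its call in both. In the fit to the 12 arrays of the comparison alone neither was called (adjusted p = 0.137 for Ier5 and 0.169 for Ier2). Nr4a1 had the largest such difference of the 9, 1.76 ± 0.52, with an adjusted p = 0.0516, and Junb one of 0.83 ± 0.31 with 0.126. At 7 days 0 of the 9 genes were called by limma, where 10.8% of probe sets were, and 1, Ier5, had an unadjusted p under 0.05 (26.9% of all probe sets), with a difference of 0.32 ± 0.13 between the effects and an adjusted p = 0.106.

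The unexposed nose was also compared with unexposed blood. These tissues differ in their cells and scales, and most probe sets were called. At 28 days 6 of the 9 genes were called lower in nose, 1 higher and 2 not called, where 71.3% of probe sets were called, 25.8% lower and 45.4% higher, and the median difference was −0.47, where that of all probe sets was 0.20. Jun was the gene called higher, at 9.37, 9.35 and 9.25 in control nose and 8.18, 9.14 and 8.61 in control blood, a difference of 0.68 ± 0.20. Ier5 was lower by 0.29 ± 0.09, at 7.528, 7.498 and 7.278 in control nose, and Dusp1 by 1.40 ± 0.45. Without control replicate 2 of blood 3 genes were called, Jun, Ier5 and Egr1, and Egr1 was then higher in nose by 0.76 ± 0.27. In the fit to these 6 arrays alone 1 gene was called.

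At 7 days 3 of the 9 genes were called in the same comparison, 1 higher and 2 lower, where 74.7% of probe sets were called, 58.7% higher and 16% lower. Jun was higher in nose, at 10.16, 10.39 and 10.23 in control nose and 9.02, 8.57 and 8.98 in control blood, a difference of 1.40 ± 0.20. Ier2 was lower in nose by 0.68 ± 0.16 and Ier5 by 0.56 ± 0.09, where the median of all probe sets was 0.41. Atf3 had 0.13 ± 0.18, and was called lower in nose after quantile normalization (−0.58) and after median centring (−0.69). Jun stayed higher in nose under both scalings at 7 days (0.90 and 0.58), while at 28 days it was higher by 0.62 after quantile normalization and by 0.15, not called, after median centring.

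Other genes of the early response were read from a separate list of 46, of which 44 had a probe set. In blood at 28 days 3 of the 44 fell and 0 rose, where 1.31% of probe sets fell and 3.95% rose, with a median of −0.23 against −0.02 over all probe sets. They were Rhob, a small GTPase of endosomes and the cytoskeleton, which stood at 7.74, 7.53 and 7.42 in exposed blood and at 8.30, 8.70 and 8.44 in control blood and fell by 0.92 ± 0.12 (adjusted p = 0.00404), Klf4 by 0.87 ± 0.23 (0.0460) and Klf2 by 0.62 ± 0.12 (0.0140). Klf2 and Klf4 are zinc finger factors, and Klf2 keeps T cells quiescent. In blood at 7 days 0 of the 44 were called by limma, and the 2 with the smallest p were Jund, an AP-1 member that is usually expressed steadily (−0.60 ± 0.14, adjusted p = 0.0701), and Klf2 (−0.48 ± 0.12, 0.0937).

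In nose at 7 days 7 of 43 genes of that list fell, where 7.84% of probe sets did, and 0 rose, with a median of −0.17 against −0.05 over all probe sets. Nr4a3, a relative of Nr4a1, stood at 7.14, 7.82 and 7.58 in exposed nose and at 8.41, 8.10 and 8.98 in control nose and fell by 0.98 ± 0.24 (adjusted p = 0.0231). Fosl2, which pairs with Jun proteins in AP-1, fell by 0.66 ± 0.16, Klf10 by 0.68 ± 0.15 and Ier3, a regulator of cell survival, by 0.60 ± 0.16. Fos, Jun and Nr4a1 themselves were not called there. In nose at 28 days 0 of 43 were called by limma, with Ier3 at −0.40 ± 0.16 (adjusted p = 0.256).

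Kinases and factors that feed the early response were mostly uncalled. In blood at 28 days 2 of 25 rose and 1 fell, where 3.95% of probe sets rose and 1.31% fell. Rps6ka5, a kinase that phosphorylates CREB and histone H3 at these genes, stood at 9.76, 10.38 and 9.87 in exposed blood and at 9.27, 8.78 and 9.16 in control blood and rose by 0.94 ± 0.16 (adjusted p = 0.00670). Nras, a GTPase upstream of ERK, rose by 0.51 ± 0.09, and Mef2d, a factor that binds the promoters of Jun and Nr4a1, fell by 0.28 ± 0.07. In nose at 7 days 1 of 25 rose and 3 fell, where 8.43% and 7.84% of probe sets did. Braf, an activator of the ERK cascade, rose by 0.46 ± 0.11, while Mapkapk2, a target of p38, fell by 0.65 ± 0.13, Elk3, a partner of serum response factor, by 0.58 ± 0.17 and Atf1, of the CREB family, by 0.35 ± 0.08. In blood at 7 days and nose at 28 days 0 of 25 were called by limma, with Mef2d at −0.27 ± 0.07 (adjusted p = 0.114) and Map2k4, which activates JNK, at −0.29 ± 0.08 (0.134).

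Of 14 attenuators of ERK and Egr signalling, 1 rose and 0 fell in blood at 28 days. Of all probe sets 3.95% rose and 1.31% fell there. In nose at 7 days 1 of the 14 rose and 1 fell, where 8.43% and 7.84% of probe sets did. In blood at 7 days and nose at 28 days 0 of the 14 were called by limma. Nab1, a corepressor that binds Egr proteins, was called in both tissues. It stood at 8.75, 9.15 and 8.63 in exposed blood and at 7.94, 8.00 and 8.09 in control blood at 28 days, a rise of 0.84 ± 0.11 (adjusted p = 0.00404). In nose at 7 days Nab1 fell by 0.84 ± 0.18 and Dusp8, a phosphatase of JNK and p38, rose by 1.27 ± 0.29. Of the AP-1 partners and target genes 27 had a probe set, and 24 passed the filter and were tested in each tissue. Of these 24, 4 fell in nose at 7 days, where 7.84% of probe sets did. In the other 3 comparisons 0 were called. Over all probe sets 0.00456% were called in nose at 28 days, 0.475% in blood at 7 days and 5.27% in blood at 28 days. Plau, the protease urokinase, stood at 7.85, 9.01 and 8.98 in exposed nose and at 10.39, 9.93 and 9.93 in control nose and fell by 1.47 ± 0.36. Mmp3 fell by 0.70 ± 0.12, Mmp12 by 0.49 ± 0.13 and Maf by 0.38 ± 0.12.

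Most pairs of the 9 genes deviated from their group means in the same direction, with Ier5 apart. Deviations of an array from its group mean had a median Pearson r of 0.60 over the 36 gene pairs in nose and 0.66 in blood, with 33 of 36 pairs above 0 in each, over 12 arrays of 4 groups. Pairs went down to −0.31 in nose and −0.23 in blood, and pairs of other genes were not measured for comparison. Without the 28 day control replicate 2 of blood the median was 0.36 and 27 of 36 pairs were above 0. Each gene was also set against the mean of the other measured genes, itself left out. Ier5 followed that mean least, with r of 0.12 in nose and 0.07 in blood, whereas Fos had r of 0.93 in nose and 0.97 in blood. Named genes outside the set were set against the mean of all 9 genes. The most alike in nose were Csrnp1 (0.96), Zfp36 (0.96), Sik1 (0.95), Ccl20 (0.92) and Shroom2 (0.92). In blood they were P2ry13 (0.99), Cyp4f18 (0.98), Bmx (0.97), Palm (0.97) and Rbm47 (0.96). Csrnp1, Zfp36 and Sik1 were on the list of other early response genes. Among the 50 genes most like the mean, 5 of the 43 candidates on that list were found in nose and 7 of 44 in blood. These likenesses are descriptions over 12202 candidate genes in nose and 11708 in blood. Those in blood include the 28 day control replicate 2 and were not computed without it.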

How the data were processed

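Affymetrix arrays of nasal epithelium and white blood cells gave 1 value per probe set and array. The authors deposited normalized intensity values, linear and not logged. The submitters' processing notes name Partek. How signals were summarized and normalized is not given in the sources used. Groups came from sample titles, and the number of arrays, 3 a group, limits the precision. Gene symbols came from the platform table, in which 15310 probe sets had 1 symbol, 323 several and 13581 were not listed.

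Here log2 was taken and nothing was normalized again. A probe set was tested where its mean reached percentile 25 of the tissue, which left 21910 per tissue and 20096 for comparisons between tissues. limma 3.58.1 in R 4.3.3 (lmFit, contrasts.fit, eBayes) modelled the 12 arrays of each tissue by group means, or all 24 for comparisons between tissues, with two-sided tests, Benjamini-Hochberg adjustment over all probe sets kept and a threshold of 0.05. The code was tested on simulated data. Genes were named by these rules: the members, up to 4 rises and 4 falls past the threshold in each other list (the 2 with the smallest p where none passed), and the 5 genes most like the members' mean. The members, lists and rules were chosen with earlier results of these data known. Alternatives covered the filter, scaling, prior, replicate block, arrays in the fit, threshold and each array left out, and a neutrophil marker covariate was added after seeing the data.

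Same-numbered exposed and control arrays had residual correlations of −0.348 to 0.247 over 12 pairs. In nose at 28 days the 3 pairs had 0.154 to 0.247, whereas in nose at 7 days they had −0.260, −0.078 and −0.141. Same-numbered nose and blood arrays had residual correlations of −0.202 to 0.171 over 12 pairs. The numbers were not taken to pair arrays in the main fits. In nose at 28 days 0 members were called in the main fit, so the block, run as an alternative, had no call to remove there. With the block 1 member was called in blood at 28 days, against 3 in the main fit. For the tissue difference at 28 days it was 1, against 2. For unexposed nose against blood it was 4 at 7 days, against 3, and 6 at 28 days, against 7. The labels do not say that numbers mark a shared animal or day.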

Additional observations from a re-analysis of the deposited data

Results flagged for a closer look

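The exposure effect of 2 genes differed between nose and blood at 28 days by a test of the difference itself. For Ier5 the effect in nose exceeded that in blood by 0.58 on the log2 scale, with effects of 0.09 in nose and −0.49 in blood. For Ier2 it did so by 0.83, with effects of 0.18 in nose and −0.65 in blood. The call of Ier5 held in 12 of 12 fits that left out an array and that of Ier2 in 6 of 12. In the fit to the 12 arrays of the comparison alone both calls were lost (adjusted p = 0.137 for Ier5 and 0.169 for Ier2), and that of Ier2 was also lost with the replicate block (0.0584). In blood at 28 days 1 of 8 neutrophil markers was called lower, and the summed signal of the 8 did not overlap between exposed and control arrays. In nose 5 of 8 of them lay below the filter level. The part of the neutrophil markers in these differences was not tested.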

How the results depend on the processing

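Counts of called members kept 0 under every setting tried for both nasal comparisons and for both day differences. Of 1388 member values under alternatives 1313 kept their side of the threshold, with no change of sign by more than the spread between replicates. A further 43 lost a call and 25 gained one. Without a call, 5 changed sign by more than that spread, though not all ended far from 0. For the tissue difference at 28 days without blood control replicate 2, Fos ended at −0.02 ± 0.34 and Egr1 at −0.05 ± 0.36. Another 2, both of Atf3, changed sign with a call. For blood at 28 days, 3 members were called, against 5 at an adjusted p under 0.1, 1 with the replicate block, 0 in the fit to the arrays compared alone, 0 with the neutrophil covariate and 1 to 4 without single arrays. For blood at 7 days 0 were called, against 3 in the fit to the arrays compared alone. For the tissue difference at 28 days 2 were called, against 1 with no filter, 1 with the replicate block, 0 in the fit to the arrays compared alone and 1 to 3 without single arrays, and at 7 days 0, against 2 in the fit to the arrays compared alone. For unexposed nose against blood 3 were called at 7 days, against 5 at an adjusted p under 0.1, 6 after quantile normalization, 8 after median centring and 6 in the fit to the arrays compared alone, and 7 at 28 days, against 1 in that fit and 3 to 7 without single arrays. Atf3 in unexposed nose against blood at 7 days had 0.13, and −0.58 after quantile normalization and −0.69 after median centring, where it was called. Over all probe sets the calls in nose at 7 days numbered 3564, against 6300 in the fit to the arrays compared alone, 2367 with the filter at the median, 1795 with the replicate block and 808 without control replicate 1. In nose at 28 days 1 was called, against 1081 without control replicate 1, 42 after quantile normalization and 0 with the block. In blood at 7 days 104 were called, against 463 in the fit to the arrays compared alone, 264 after quantile normalization and 2 with the block. In blood at 28 days 1154 were called, against 392 with the block, 26 with the covariate and 1 in the fit to the arrays compared alone. The cause of these changes was not tested. The mean over probe sets of a gene was not run, since each measured member had 1 probe set.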
